A study of Homo sapiens with 4 samples.

Results

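The polycistron of miR-183, miR-96 and miR-182, called the miR-183 cluster here, is represented by 5 mature miRNAs, hsa-miR-183-5p, hsa-miR-183-3p, hsa-miR-96-5p, hsa-miR-182-5p and hsa-miR-182-3p (hsa for human, left out below), taken by name from 2366 human miRNAs with a row in each deposited count table. After knockdown of ERH, the 5p miRNAs of its 3 hairpins had log2 fold changes between -0.03 and 0.08 relative to the bulk of miRNAs. None of the 3 passed the test, which 50.9% of 464 tested miRNAs passed. The rare miR-183-3p and miR-182-3p, at -0.36 and -0.34 with wide bounds, did not pass either. The ratios among the 3 hairpins, tested separately, did not pass, and neither did any other of the 336 hairpin pairs in that test. As a share of all miRNA reads the 3 5p miRNAs were higher after knockdown. A statement that they were little changed therefore holds relative to the bulk of miRNAs and not for the read share.

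The small RNA came from K562, a human cell line established from a chronic myeloid leukaemia, whose cells here carry dCas9-KRAB, an inactive Cas9 fused to a repressor of transcription (CRISPR interference). ERH knockdown cells received 0.05 µg/ml doxycycline for 5 days to induce the system, and control cells of the same lines received none. Each of 2 guide RNAs against ERH had its own polyclonal line, so each group holds 2 libraries, 1 culture per guide RNA. All 4 libraries share the dCas9-KRAB background and a guide RNA against ERH. The libraries hold small RNA, so the loss of ERH itself was not measured, and doxycycline without such a guide RNA was not analysed here.

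The hairpins of the miR-183 cluster are carried on a common primary transcript. They are best known from sensory cells such as the hair cells of the inner ear and photoreceptors, where the cluster supports differentiation, and seed mutations of miR-96 cause hereditary hearing loss. The cluster is also often raised in tumours. A miRNA hairpin is cut out of its primary transcript by the Microprocessor, made of the nuclease DROSHA and its partner DGCR8. ERH is a small protein that binds this complex and is known to help the processing of poor hairpins that lie beside a better one. The comparison therefore addresses whether members of 1 cluster depend on ERH, and whether neighbours depend on it unequally.

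The mature sequences of the 3 abundant miRNAs are shown because they carry nearly the same seed, the stretch of bases 2 to 8 that pairs with targets (RefSeq, GRCh38.p14, seed in capitals, 5′ to 3′).
miR-183-5p: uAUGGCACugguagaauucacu
miR-96-5p: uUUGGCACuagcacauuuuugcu
miR-182-5p: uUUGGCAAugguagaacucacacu

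Counted from 1 at the 5′ end, the seed of miR-183-5p differs from that of miR-96-5p by A2U alone and from that of miR-182-5p by A2U and C8A, and miR-96-5p differs from miR-182-5p by C8A. All 3 hold UGGCA at positions 3 to 7. Of the 2370 mature miRNAs of the RefSeq table, 10 hold these letters there (0.422%). Over their length, miR-183-5p and miR-182-5p match at 18 of 22 positions, against 13 of 22 for miR-183-5p and miR-96-5p. The 2 less abundant members, from the 3′ side of their hairpins, share no seed with them or with each other.
miR-183-3p: gUGAAUUAccgaagggccauaa
miR-182-3p: uGGUUCUAgacuugccaacua

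On the minus strand of chromosome 7 in GRCh38 (GENCODE 29), the hairpins span 4632 bases, in the order of transcription MIR183 at chr7:129774905-129775014, MIR96 at chr7:129774692-129774769 and MIR182 at chr7:129770383-129770492. MIR183 and MIR96 are 135 bases apart, whereas 4199 bases separate MIR96 from MIR182. No other annotated gene overlaps this span. The nearest are the long noncoding RNA AC084864.1, 8355 bases away on the same strand, and NRF1, 13300 bases away on the opposite strand. The RefSeq hairpins of MIR96 and MIR182 are shown with the 5p miRNA in capitals, because the fold of a hairpin bears on its processing.
MIR96: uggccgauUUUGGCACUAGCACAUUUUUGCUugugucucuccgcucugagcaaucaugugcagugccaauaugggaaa
MIR182: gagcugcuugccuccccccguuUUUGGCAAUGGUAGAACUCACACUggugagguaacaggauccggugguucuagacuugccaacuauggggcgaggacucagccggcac

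In energy per base both folds were close to the middle of all hairpins, while the paired share was below the median. The predicted minimum free energy was -34.8 kcal/mol for MIR96 and -47.6 kcal/mol for MIR182, or -0.446 and -0.433 kcal/mol per base, against a median of -0.452 over 1562 RefSeq hairpins. The paired share of bases was 69.2% for MIR96 and 65.5% for MIR182, against a median of 71.6%, and 60.6% and 76.6% of hairpins had a larger paired share. Each has 20 bases between its 2 mature miRNAs. The letters UGU, searched on the RNA strand between the arms, were found in MIR96 and not in MIR182, and 33.7% of 739 hairpins with both arms annotated hold them there. These are descriptions of the annotated sequences, and MIR183 was not folded.

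The libraries held 2227374 and 2393565 miRNA reads in knockdown cells (guide RNA 1, then 2) and 1430434 and 2476700 in control cells. Their miRNA makeup fitted the label of a blood cell line. Erythroid miR-144-3p, miR-451a and miR-486-5p summed to 48465 to 50354 CPM (counts per library total, on a common scale) in knockdown and 38158 to 38863 CPM in control libraries, while liver miR-122-5p was at 0.836 to 2.24 CPM in knockdown and 0.699 to 1.62 CPM in control libraries. Of the other sensory miRNAs examined, miR-211-5p had 0 reads in each of the 4 libraries, which allows up to 3 reads, and the sum with miR-204-5p lay at 4.49 to 5.01 CPM in knockdown and 3.50 to 4.85 CPM in control libraries. Neural miR-9-5p and miR-219a-5p were present, with miR-124-3p at 0.418 CPM in the knockdown library of guide RNA 2 and at 0 reads in the other three. Summed over these 3 neural miRNAs, knockdown libraries had 864 to 867 CPM and control libraries 696 to 721 CPM. With the scaling to the bulk of miRNAs used below the direction turned, with log2 fold changes of -0.20 for miR-9-5p and -0.13 for miR-219a-5p, neither called. The 6 epithelial miRNAs examined, mostly miR-200c-3p and miR-141-3p, summed to 145 to 150 CPM in knockdown and 82.4 to 97.2 CPM in controls. Muscle miRNAs (2 of 3 names with a row) summed to 2.51 to 3.59 CPM in knockdown and 0.404 to 0.699 CPM in controls, and myeloid miR-223-3p and miR-142-3p to 84590 to 84708 CPM in knockdown and 90005 to 91938 CPM in controls. As shares of reads, the erythroid, neural, epithelial and muscle sums lay higher in knockdown libraries, as the cluster did. A higher share was common to most miRNAs: scaled by library size, 58.8% of the 464 tested were called higher after knockdown. The part of these cell type miRNAs in the result for the cluster was not tested. The erythroid members differed: miR-144-3p had 18704 and 16963 CPM in knockdown and 8058 and 7735 CPM in controls. miR-451a had 24072 and 24129 CPM in knockdown and 25243 and 24549 CPM in controls. Scaled to the bulk of miRNAs, the log2 fold change was 0.74 for miR-144-3p and -0.48 for miR-451a, both called. It was -0.05 for miR-486-5p, not called. On that scale miR-200c-3p (0.35) was called and miR-141-3p (0.21) was not, while miR-223-3p and miR-142-3p (-0.54 each) were both called.

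The 3 hairpins yielded unequal amounts, and 1 arm of each dominated. miR-96-5p was the most abundant member, followed by miR-182-5p and miR-183-5p, in each of the 4 libraries. As mature miRNAs of 22 to 24 bases they can be compared as reads, apart from unequal capture in library making. Of the reads of these 3 miRNAs, miR-96-5p took 54.1% and 50.1% in knockdown and 53.7% and 53.9% in control libraries. miR-182-5p took 32.1% and 36.4% in knockdown, against 33.1% and 33.1% in controls, so the knockdown library of guide RNA 2 stood above the other three. miR-183-5p took 13.8% and 13.6% in knockdown and 13.3% and 13.0% in controls. Exact 95% binomial intervals on these shares, which cover counting error only, were at most 2.52 percentage points wide.

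The 5p arm made up 98.6% and 98.9% of miR-183 reads in knockdown and 98.3% and 98.4% in controls. For miR-182 it was 99.6% and 99.7% in knockdown and 99.7% and 99.5% in controls. miR-96 was the most one-sided in each library. Its 3p arm, miR-96-3p, had 4 and 1 reads in knockdown and 4 and 6 in controls, against 3278 to 6831 reads of miR-96-5p. It was too rare to be tested. The only other miRNA of the RefSeq table with the seed of miR-96-5p is miR-1271-5p, from chromosome 5, and it had 6 and 4 reads in knockdown and 1 and 0 in controls. At the depth of these libraries, reads with that seed came almost wholly from miR-96-5p.

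Levels were compared after scaling by the trimmed mean of M-values (TMM), which sets the bulk of miRNAs level between libraries. Of 464 miRNAs with enough reads for the edgeR quasi-likelihood test, 236 passed at an adjusted p under 0.05 (Benjamini-Hochberg), 50.9% of those tested, with 119 up (25.6%) and 117 down (25.2%). Leaving out 1 library leaves 1 library in a group and tests another set of miRNAs, and fewer of them passed in each such fit. All 5 members had enough reads, and 0 of the 5 passed. At an unadjusted p under 0.05, 268 of the 464 passed and 0 of the 5 members. DESeq2 gave an adjusted p for 401 miRNAs and called 150 (37.4%), 48 up and 102 down. It called 0 of the 4 members that had one, and gave none for miR-182-3p. The median log2 fold change was -0.03 over the 5 members and 0.06 over all 464, whose quartiles were -0.32 and 0.58. The median of the members is the value of miR-96-5p, and the rare 3p arms count in it as much as the 5p miRNAs. miR-183-5p (0.08) and miR-182-5p (0.07) lay just above the median of all 464.

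**Figure D1:**
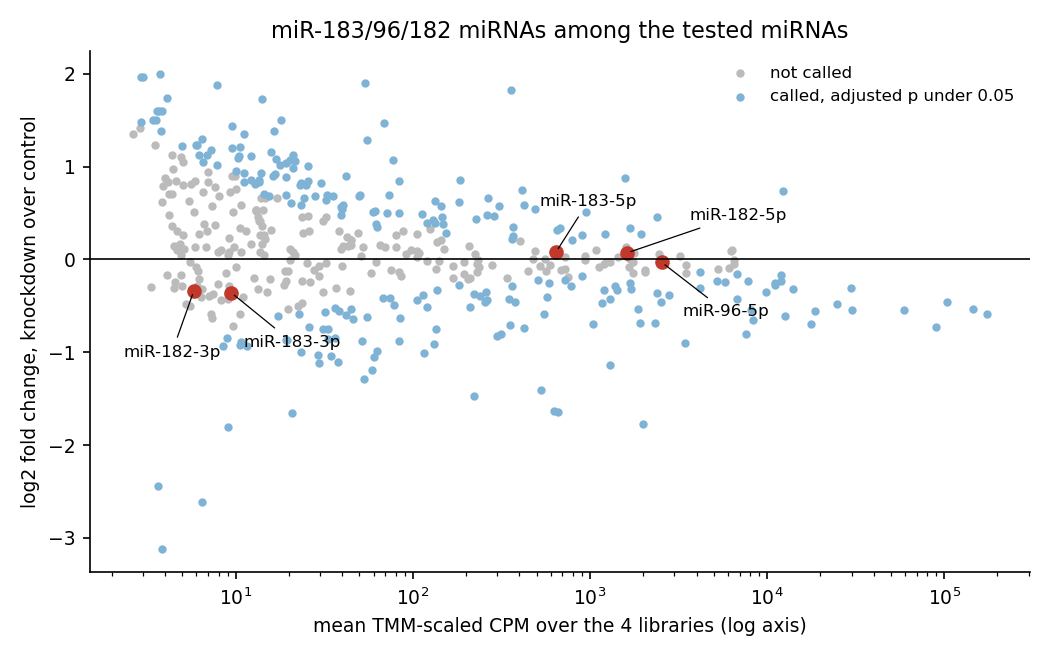
Log2 fold change (ERH knockdown over control) of each of 464 tested miRNAs against its mean level in TMM-scaled CPM on a log axis, with the 5 cluster members in red and miRNAs past an adjusted p of 0.05 in blue. The abundant 5p members lie between -0.03 and 0.08, within a cloud in which 236 miRNAs passed, and the rare 3p members lie at -0.36 and -0.34.

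miR-96-5p, the most abundant of the cluster, had 6674 and 6831 reads in knockdown cells (guide RNA 1, then 2), against 3278 and 5254 in control cells. Scaled, these are 2536 and 2494 CPM in knockdown and 2600 and 2535 CPM in controls. The groups overlapped, by less than 1 CPM, at the higher knockdown and the lower control library. Its log2 fold change was -0.03 ± 0.05 (SE of the fit, 2 libraries per group; adjusted p = 0.68, edgeR). The 95% interval, -0.14 to 0.08, bounds the level in knockdown cells at 0.905- to 1.06-fold that in controls.

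miR-182-5p had 3952 and 4965 reads in knockdown and 2022 and 3220 in control cells, which scale to 1502 and 1813 CPM against 1604 and 1554 CPM. One knockdown library was below both controls and the other above both. The log2 fold change was 0.07 ± 0.08 (SE; adjusted p = 0.46, edgeR), with a 95% interval of -0.09 to 0.23, or 0.939- to 1.17-fold. The knockdown libraries averaged 1657 ± 220 CPM and the controls 1579 ± 35.4 CPM (SD, n = 2 each). For this miRNA the spread was larger after knockdown, which was not tested. The SD was 29.4 CPM in knockdown and 45.9 CPM in controls for miR-96-5p, and 20.4 and 22.7 CPM for miR-183-5p. The SE of the fit, and the interval drawn from it, rest partly on the spread of other miRNAs. Without the knockdown library of guide RNA 2 the value was -0.08, and without that of guide RNA 1 it was 0.19, neither called.

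miR-183-5p had 1702 and 1850 reads in knockdown and 810 and 1265 in control cells, or 647 and 675 CPM against 642 and 610 CPM. Both knockdown libraries were above both controls, the nearest by a small margin. The share of all tested miRNAs separated in this way was not computed. Its log2 fold change was 0.08 ± 0.07 (SE; adjusted p = 0.36, edgeR), with a 95% interval of -0.07 to 0.23, or 0.955- to 1.17-fold.

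The 3p arms were counted too rarely for bounds of this width. miR-183-3p had 24 and 20 reads in knockdown and 14 and 21 in controls, with a scaled level of 9.12 and 7.30 CPM against 11.1 and 10.1 CPM in controls, so both knockdown libraries were below both controls. Its log2 fold change was -0.36 ± 0.32 (SE; adjusted p = 0.37, edgeR), bounded at 0.490- to 1.24-fold. miR-182-3p had 15 and 13 reads in knockdown and 7 and 15 in controls, with overlapping scaled levels of 5.70 and 4.75 CPM against 5.55 and 7.24 CPM. Its log2 fold change was -0.34 ± 0.38 (SE; adjusted p = 0.51, edgeR), bounded at 0.450- to 1.40-fold. Changes smaller than these were not detectable for the 3p arms at this depth. For the separation of miR-183-3p too, the share of all tested miRNAs separated in this way was not computed.

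**Figure D2:**
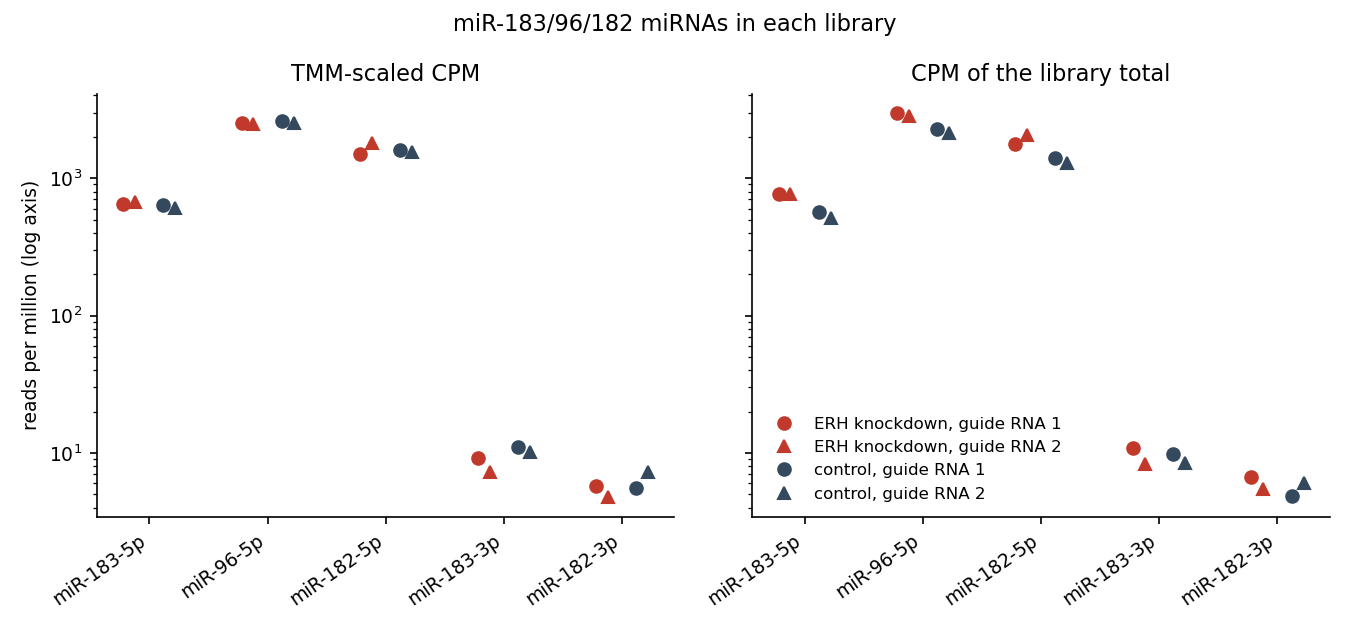
CPM of each cluster member in each library on a log axis, scaled by TMM (left) or by the library total (right), with ERH knockdown in red and control in dark blue, circles for guide RNA 1 and triangles for guide RNA 2. The 3 5p members stand nearly level between the groups on the left, and their knockdown libraries lie above control on the right, with miR-96-5p at 2996 and 2854 CPM against 2292 and 2121 CPM.

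The bounds hold for levels relative to the bulk, and the read share moved. In bulk RNA, a change in the number of cells that make a miRNA and a change per cell cannot be told apart. The 5 members together took 0.555% and 0.572% of miRNA reads in knockdown libraries and 0.429% and 0.395% in controls. Scaled by the library total, miR-96-5p averaged 2925 ± 101 CPM in knockdown and 2207 ± 120 CPM in control cells (SD, n = 2 each), a ratio of 1.33. miR-182-5p averaged 1924 ± 212 CPM in knockdown and 1357 ± 80.2 CPM in controls, a ratio of 1.42. miR-183-5p averaged 769 ± 6.21 CPM in knockdown and 539 ± 39.2 CPM in controls, a ratio of 1.43. None of these 3 overlapped between the groups, whereas both 3p arms did. The share of all tested miRNAs without such overlap was not computed, so this is not shown to be particular to the cluster.

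Scaled by library size, the 3 abundant 5p miRNAs rose and passed the test (adjusted p of 2.2e-06 for miR-96-5p, 4.17e-07 for miR-182-5p and 2.2e-06 for miR-183-5p, edgeR), with log2 fold changes of 0.41 ± 0.07, 0.51 ± 0.08 and 0.52 ± 0.09 (SE). That scaling moved the median of all tested miRNAs up by 0.44 and called 58.8% of them as higher after knockdown (273 up and 41 down), so a call there is shared by most miRNAs. Relative to the median under each scaling, the 3 miRNAs lay between -0.09 and 0.02 with TMM and between -0.10 and 0.01 with library size. A scaling shifts all log2 fold changes by nearly the same amount, so this position could hardly differ and is no separate support.

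The tables also hold 2 added spike-in RNAs, fly miR-14 and frog miR-427, by their names. Scaled by their summed reads, which were 59192 and 47882 in knockdown and 46150 and 58119 in control libraries, the median of all tested miRNAs lay 0.68 above its TMM value. The log2 fold changes were then 0.66 ± 0.38 for miR-96-5p, 0.78 ± 0.38 for miR-182-5p and 0.78 ± 0.37 for miR-183-5p (SE), and 0 of the 5 members passed, with 41.8% of all tested miRNAs called (186 up and 8 down) and 2 members at an unadjusted p under 0.05. Against the median, the 3 lay at -0.09 to 0.03, which for the same reason could hardly differ from the values above. The data bound the change of the cluster relative to other miRNAs far more tightly than its change per amount of spike-in RNA.

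**Figure D3:**
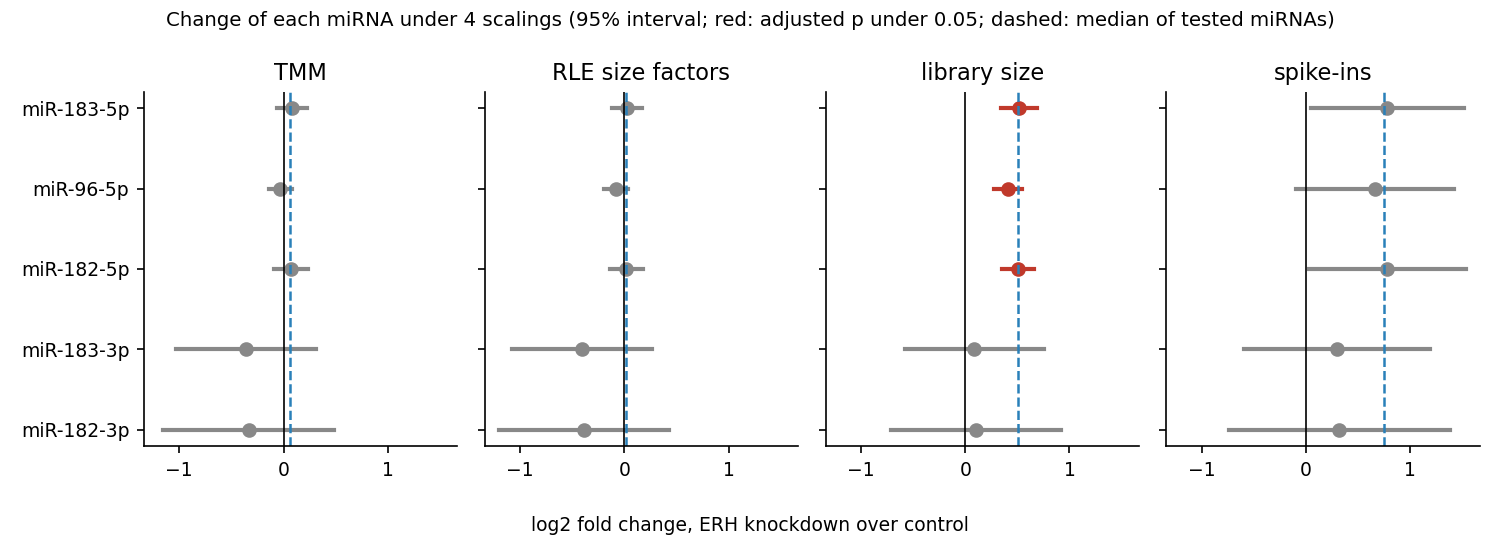
Log2 fold change (ERH knockdown over control) with its 95% interval for each cluster member under 4 scalings, red where the adjusted p was under 0.05, with the median of all tested miRNAs as a dashed line. The 3 5p members keep nearly the same distance from the dashed line, because a scaling shifts all miRNAs by nearly the same amount. That line moves from 0.06 with TMM to 0.50 with library size and 0.75 with spike-ins.

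Ratios of reads within a library need no scaling and compare the hairpins directly. The ratio of miR-183-5p to miR-96-5p, whose hairpins are close neighbours, was 0.255 and 0.271 in knockdown and 0.247 and 0.241 in control libraries. Both knockdown ratios were above both controls. The change in the log2 ratio, knockdown minus control, was 0.11 ± 0.16 (SE; adjusted p = 0.78, limma on the log2 ratios of 336 hairpin pairs in 38 clusters). An exact permutation test gave a two-sided p of 0.333, the smallest that 2 libraries against 2 can give. The 95% interval bounds the change in this ratio at 0.793- to 1.46-fold.

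The ratio of miR-96-5p to miR-182-5p, across the long gap of the cluster, was 1.69 and 1.38 in knockdown and 1.62 and 1.63 in control libraries. The control libraries were nearly identical and the knockdown libraries lay on either side of them. The change was -0.09 ± 0.19 on the log2 scale (SE; adjusted p = 0.84, limma), bounded at 0.651- to 1.35-fold, and 0.05 without the knockdown library of guide RNA 2. The ratio of miR-183-5p to miR-182-5p was 0.431 and 0.373 in knockdown and 0.401 and 0.393 in controls, a change of 0.01 ± 0.17 (SE; adjusted p = 0.98, limma), bounded at 0.723- to 1.41-fold, and -0.09 without the knockdown library of guide RNA 1 (-0.00031 without the control library of guide RNA 2). The exact permutation p was 1 for both.

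Over all 336 pairs, 0 passed in limma (0%), 69 had an unadjusted p under 0.05, and 40 passed (11.9%) with a prior variance that follows read depth, none of them from this cluster. That version narrowed the 95% intervals of the 3 pairs, to -0.04 to 0.26 for miR-183-5p to miR-96-5p, -0.26 to 0.07 for miR-96-5p to miR-182-5p and -0.15 to 0.18 for miR-183-5p to miR-182-5p on the log2 scale. The median size of the change over all pairs was 0.31 on the log2 scale. Between 2.68% and 18.2% of pairs had a smaller change than the 3 pairs of this cluster. The pairs were not matched for read depth, and a cluster of many hairpins gives many pairs. Ratios of rare miRNAs vary more by counting, and the part of depth in this rank was not tested.

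Other clusters give these values a scale. In the miR-106b/miR-93/miR-25 cluster, also of 3 hairpins, the change in log2 ratio was -0.15 ± 0.16 for miR-106b-5p to miR-93-5p, 0.06 ± 0.16 for miR-93-5p to miR-25-3p and -0.08 ± 0.16 for miR-106b-5p to miR-25-3p (SE, limma; adjusted p = 0.69, 0.89 and 0.83). These are of the size seen in the miR-183 cluster. The ratio of erythroid miR-144-3p to its neighbour miR-451a was 0.777 and 0.703 in knockdown and 0.319 and 0.315 in controls, a change of 1.22 ± 0.16 (SE; adjusted p = 0.13, limma). The 95% interval of that change, 0.76 to 1.68, lies above the interval of each pair of the miR-183 cluster. The bounds of those pairs ran from -0.62 to 0.55, and their signs depend on which miRNA is divided by which. The difference between the clusters was not itself tested. The miR-144 and miR-451a pair was chosen with earlier results of these data known. Its miRNAs were called in opposite directions (log2 fold changes of 0.74 and -0.48), so the large change in their ratio follows from those values.

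**Figure D4:**
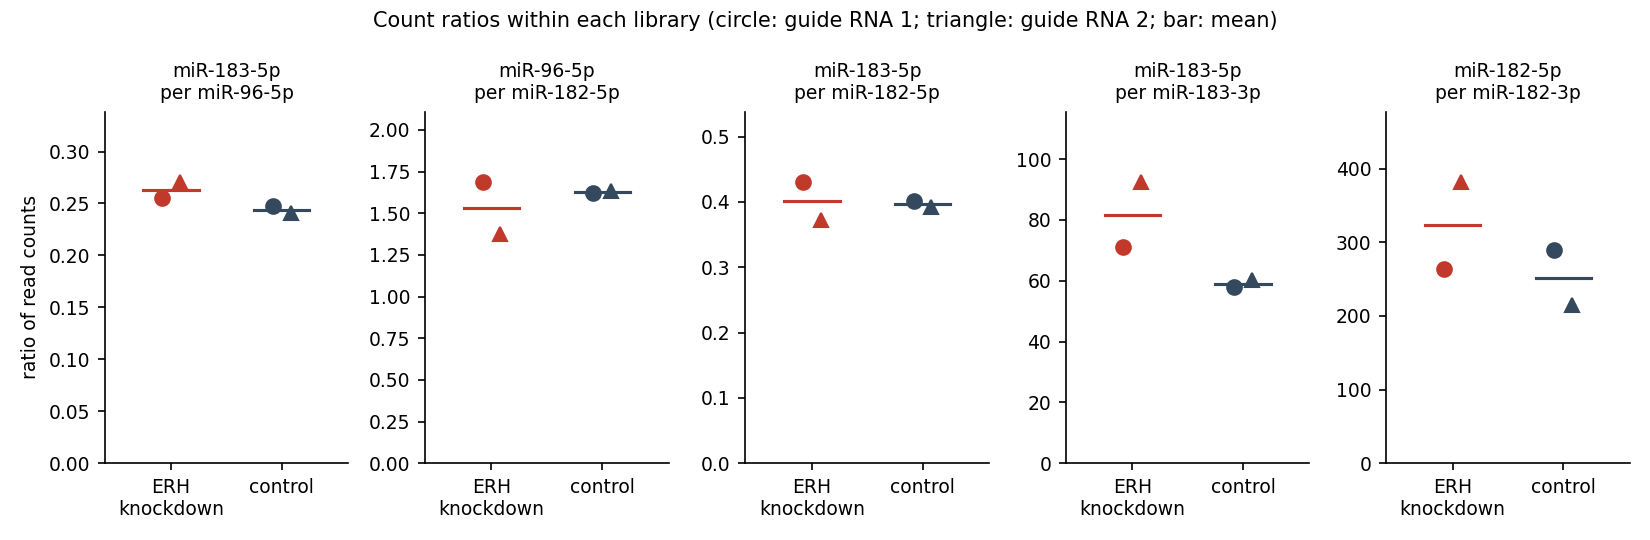
Ratio of read counts within each library for the 3 hairpin pairs and the 2 arm pairs of the cluster, each axis from 0, with ERH knockdown in red left of control in dark blue, circles for guide RNA 1, triangles for guide RNA 2 and bars for means. The control libraries lie close together in the hairpin ratios, at 1.62 and 1.63 for miR-96-5p per miR-182-5p, and the knockdown libraries lie further apart.

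Arm ratios rest on the few 3p reads. The ratio of miR-183-5p to miR-183-3p was 70.9 and 92.5 in knockdown and 57.9 and 60.2 in control libraries, so both knockdown ratios were above both controls. The log2 change was 0.47 ± 0.19 (SE; adjusted p = 0.27, limma over 109 arm pairs, of which 0% passed), with a 95% interval of -0.02 to 0.95. It was 0.28 without the knockdown library of guide RNA 2 and 0.65 without that of guide RNA 1, neither called. Of all arm pairs, 76.1% had a smaller change. The ratio of miR-182-5p to miR-182-3p was 263 and 382 in knockdown and 289 and 215 in controls, a change of 0.37 ± 0.25 (SE; adjusted p = 0.52, limma) with overlapping groups and an interval of -0.29 to 1.04. Leaving out 1 library gave 0.11 (knockdown, guide RNA 2), 0.18 (control, guide RNA 2), 0.56 (control, guide RNA 1) and 0.64 (knockdown, guide RNA 1), none called. With a depth-dependent prior variance 14 arm pairs passed (12.8%) and neither of these did.

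Within each guide RNA there was 1 library per condition, so the following values carry a 95% counting interval and no test between conditions. With guide RNA 1 the TMM-scaled log2 change was -0.04 (-0.10 to 0.02) for miR-96-5p, 0.01 (-0.11 to 0.13) for miR-183-5p and -0.10 (-0.17 to -0.02) for miR-182-5p. With guide RNA 2 it was -0.02 (-0.08 to 0.03) for miR-96-5p, 0.15 (0.04 to 0.25) for miR-183-5p and 0.22 (0.16 to 0.29) for miR-182-5p. The median over all tested miRNAs was 0.01 with guide RNA 1 and 0.07 with guide RNA 2. miR-96-5p gave nearly the same value with both guide RNAs, and miR-182-5p gave values of opposite sign.

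By library size, the 3 miRNAs were higher in knockdown cells of both guide RNAs. The log2 change was 0.39 and 0.43 for miR-96-5p (guide RNA 1, then 2), 0.43 and 0.60 for miR-183-5p and 0.33 and 0.67 for miR-182-5p. By spike-in reads it was 0.67 and 0.66 for miR-96-5p, 0.71 and 0.83 for miR-183-5p and 0.61 and 0.90 for miR-182-5p. miR-182-5p had the largest gap between the guide RNAs of these 3 under either scaling.

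The ratios within a library were also set side by side for each guide RNA. With guide RNA 2 the change in the log2 ratio of miR-96-5p to miR-182-5p was -0.25 (95% counting interval -0.33 to -0.16), and with guide RNA 1 it was 0.06 (-0.04 to 0.16). For miR-183-5p to miR-96-5p the change was 0.17 (0.05 to 0.29) with guide RNA 2 and 0.05 (-0.09 to 0.18) with guide RNA 1. For miR-183-5p to miR-182-5p it was -0.08 (-0.20 to 0.05) with guide RNA 2 and 0.10 (-0.04 to 0.25) with guide RNA 1. With guide RNA 2 the higher miR-182-5p lay beyond counting error against miR-96-5p. Against miR-183-5p the change had the same direction, with an interval that spans 0. The difference between these ratios was not tested. These intervals leave out the spread between cultures, and libraries of 1 group differed by more than counting error. The value of 1 library per condition was not tested, and whether it belongs to the guide RNA, the line or the library cannot be told apart.

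**Figure D5:**
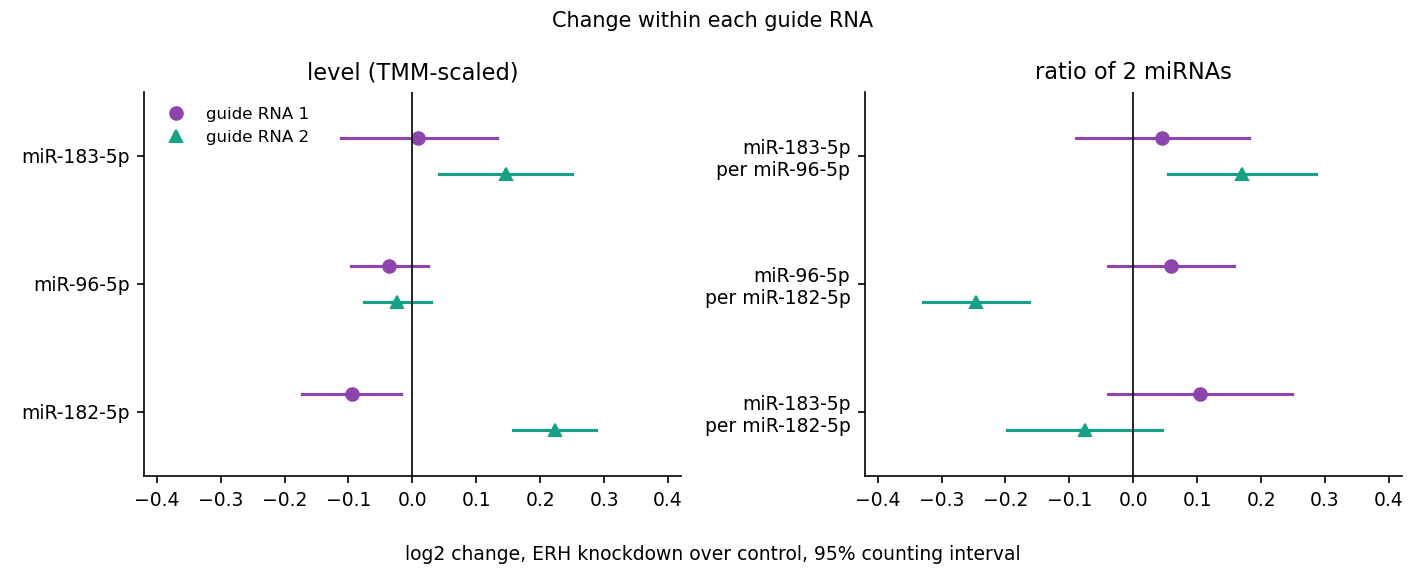
Log2 change (ERH knockdown over control) within each guide RNA, with 95% counting intervals, for the TMM-scaled level of the 3 abundant 5p miRNAs (left) and for their ratios within a library (right), circles for guide RNA 1 and triangles for guide RNA 2. The 2 guide RNAs give -0.04 and -0.02 for miR-96-5p and -0.10 and 0.22 for miR-182-5p.

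The miRNAs whose TMM-scaled profile over the 4 libraries lay nearest to the mean of the 3 abundant members were, of 173 others with a mean of at least 100 CPM, miR-186-5p, miR-32-5p, miR-130b-5p, miR-548a-3p and miR-660-5p. Their Euclidean distances ran from 0.06 to 0.09 on the centred log2 scale, against a median of 0.35. They had log2 fold changes between -0.0026 and 0.12, small by the way they were chosen. The distances of the members themselves from their mean profile were 0.05 for miR-183-5p, 0.11 for miR-96-5p and 0.12 for miR-182-5p, so these 5 other miRNAs lay nearer to that profile than miR-96-5p and miR-182-5p, though not nearer than miR-183-5p. The 3 members enter that mean themselves.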

How the data were processed

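The deposited values are raw read counts per mature miRNA, 1 whole number per miRNA and library, in tables without a header. RNA was extracted with TRIzol and small RNA was gel-purified, per the labels' protocols. Trimming, aligner, miRNA annotation and how multiply matching reads were assigned: not given in the sources used here. Spike-in rows (2) stayed out of totals and tests.

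Groups came from the labels. Each replicate number names a guide RNA and its polyclonal line and thus pairs a knockdown with a control library. The deviations of such pairs from the group means had a correlation of -0.11 across miRNAs. No library repeated another: replicates differed by more than counting error, with a chi-square statistic per degree of freedom of 4.62 between knockdown and 12.3 between control libraries. With 1 culture per guide RNA and condition, a p-value reflects no spread beyond that among these cultures. In the edgeR and limma fits, the variance behind a p-value, SE or interval also draws on the other miRNAs or pairs tested. A count of 0 allows 3 reads, or 1.21 to 2.10 CPM. Such limits and all intervals on counts cover counting error only, since no molecular identifiers are mentioned.

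Counts filtered by filterByExpr (464 miRNAs, 99.9% of reads) were scaled with TMM and fitted with edgeR 4.0.16 in R 4.3.3, without a block. SEs and 95% intervals came from the quasi-likelihood fit. Count ratios (prior count 0.5) were tested with limma 3.58.1 over all pairs of hairpins in clusters (neighbours within 10 kb, GENCODE 29, 2361 of 2366 names matched) and over all arm pairs. Hairpins were folded with RNAfold 2.7.2. DESeq2 1.42.0 and other scalings, filters and subsets of libraries were alternatives. The members, lists and tests were chosen with earlier results of these data known. Named miRNAs are the members, the other arm and seed relatives, neighbours in 2 comparison clusters, 5 nearest profiles and cell type markers. All 5 member sequences matched RefSeq.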

Additional observations from a re-analysis of the deposited data

Results flagged for a closer look

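miR-182-5p and miR-182-3p had changes of opposite sign with the 2 guide RNAs. The TMM-scaled log2 change (knockdown over control) of miR-182-5p was -0.10 with guide RNA 1 (95% counting interval -0.17 to -0.02) and 0.22 with guide RNA 2 (0.16 to 0.29). That of miR-182-3p, counted at 7 to 15 reads per library, was 0.038 with guide RNA 1 (-1.34 to 1.57) and -0.61 with guide RNA 2 (-1.80 to 0.56), so neither sign is established for it. The difference between guide RNAs was not tested, because each had 1 library per condition.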

How the results depend on the processing

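None of the 5 members (3 at a mean of at least 10 CPM, below which both 3p arms fall) passed in edgeR or DESeq2 under any alternative that was run, except library size alone, which called 3 and gave 0.51 for miR-182-5p, 0.52 for miR-183-5p and 0.41 for miR-96-5p, against -0.03 for the last with TMM. The sign of miR-96-5p also turned, without a call, with spike-in scaling (0.66), with either spike-in alone (0.63 with frog miR-427, 0.94 with fly miR-14, both chosen after seeing the data) and with a mean of at least 10 CPM (0.010). The 3p arms turned positive, uncalled: miR-182-3p to 0.11 with library size, 0.32 with both spike-ins, 0.29 with miR-427 and 0.58 with miR-14, and miR-183-3p to 0.087, 0.30, 0.27 and 0.55 under the same 4. The median of all tested miRNAs lay 0.44 to 0.96 higher than with TMM under these 4 scalings.

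Leaving out 1 library in turn gave 117 (without knockdown replicate 1) to 195 calls over all miRNAs, against 236, with 140 without control replicate 2. It gave -0.076 (without knockdown replicate 2) to 0.19 (without knockdown replicate 1) for miR-182-5p. The change in the log2 ratio of miR-96-5p to miR-182-5p ran from -0.24 to 0.054, positive without knockdown replicate 2, and that of miR-183-5p to miR-182-5p from -0.091 to 0.12, negative without knockdown replicate 1 and at -0.00031 without control replicate 2. DESeq2 called 150 of the 401 miRNAs it gave an adjusted p (none for miR-182-3p), and scaling on miR-14 alone called 145. With guide RNA as a block, 230 miRNAs and 0 members were called, and no call on a member or a ratio changed. Within 3 kb only the ratio of miR-183-5p to miR-96-5p remains in a cluster, and the arm ratios could not be computed at 10 CPM. Depth limits the 3p arms, at 7 to 24 reads per library.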
